A study of Mus musculus with 16 samples.

Results

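The axon-guidance cues and receptors were taken as every protein-coding gene whose symbol in the GENCODE vM21 mouse annotation names a semaphorin of classes 3 to 7, a plexin, an Eph receptor, an ephrin, a Robo receptor, a Slit, an Unc5 receptor or a netrin. This rule gave 65 genes among 39057 rows of the count table, and it used names alone, not expression. RNA sequencing was done on 16 cultures of primary mouse brain endothelial cells, each from the cerebral cortex of a different animal aged 21 to 28 days. The mice were targeted replacement animals, in which human APOE3 or human APOE4 is expressed from the mouse Apoe promoter, so that every cell of the animal carries the allele and the APOE3 cultures are not wild type. Each genotype had 8 cultures, 4 from males and 4 from females. All cultures were treated with puromycin at 8 ug/ml to remove other cell types, grown to confluence and given no further treatment. Apart from genotype and sex, the labels give the groups the same handling. The labels number every APOE3 culture before every APOE4 culture, so an effect of that order cannot be told apart from genotype.

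Axon-guidance molecules were named for steering growing nerve fibres, and blood vessels use the same ligands and receptors to branch, to separate arteries from veins and to keep their walls closed. Semaphorins signal through plexins, the secreted class 3 semaphorins mostly with a neuropilin as co-receptor. Ephrins and Eph receptors both sit in the membrane and signal when cells touch, while Slits act through Robo receptors and netrins through Unc5 receptors and DCC. In the brain vasculature these systems are known for setting vessel pattern, arteriovenous identity and barrier tightness.

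The libraries held 12717847 to 18624417 counts, with 14276942 to 16603076 in APOE3. Human APOE averaged 1172 ± 174 CPM (counts scaled to the library total) in APOE3 and 796 ± 134 CPM in APOE4 (SD, n = 8 each), so the transgene was expressed in both genotypes, and the counts do not tell its alleles apart. Endothelial markers summed to 25881 to 28625 CPM per library, against 453 to 674 CPM for 15 pericyte and smooth muscle markers, of which 5 were under 1 CPM in every library, and 95.8 to 197 CPM for 12 fibroblast markers, of which 5 were under 1 CPM and 1 had no count. Cell cycle genes were higher in APOE4: 27 of the 30 listed passed the test, and their mean log2 CPM was 5.67 ± 0.35 in APOE3 and 6.26 ± 0.28 in APOE4 (two-sided exact permutation test, p = 0.0017). In bulk cultures fewer cells of a type and less RNA per cell cannot be told apart.

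Ephb4 and Robo4 were the guidance receptors whose genotype difference held in every leave-one-out fit described below, so bases before their starts are shown (RefSeq, GRCm38.p6, both on the plus strand). RefSeq and GENCODE place the Ephb4 start alike, and 250 bases are given. GENCODE starts Robo4 upstream of RefSeq, so the 250-base window was cut to the 175 bases that lie before both starts. The Ephb4 sequence spans chr5:137349859-137350108 and the Robo4 sequence chr9:37401722-37401896, and capitals mark the letters GGGCGG or their reverse complement, the core of the GC box read by SP-family factors.
Ephb4: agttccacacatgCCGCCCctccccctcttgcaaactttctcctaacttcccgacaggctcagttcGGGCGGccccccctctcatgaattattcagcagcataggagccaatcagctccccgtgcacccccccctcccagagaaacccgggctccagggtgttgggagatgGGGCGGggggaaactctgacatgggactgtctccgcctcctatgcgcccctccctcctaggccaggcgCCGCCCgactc
Robo4: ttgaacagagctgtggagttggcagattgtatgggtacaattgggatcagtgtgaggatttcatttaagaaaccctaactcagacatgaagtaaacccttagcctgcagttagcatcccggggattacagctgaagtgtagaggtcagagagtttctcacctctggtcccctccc
The Ephb4 window of 250 bases holds 4 of these matches and the Robo4 window holds 0. Over all 32851 RefSeq mouse promoters of this length 32.7% hold at least 1 match, and 50 of the 72 promoters listed for 56 of the guidance genes do. The ETS core CCGGAA, searched on both strands likewise, was in 12.0% of all promoters and in 7 of these 72, and TATAAA was in 12.4% and in 2. Neither occurs in the 2 stretches shown. The counts tested below measure whole transcripts and carry no information on these bases.

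Of the 65 guidance genes, 3 had no count in any library (Epha6, Epha10 and Unc5d) and 44 passed the filter on low counts and were tested. The 21 genes left out of the test had at most 13 counts in any library. They include the netrin receptors Unc5c and Unc5d, the Eph receptors Epha1, Epha3, Epha5, Epha8, Ephb2 and Ephb3, and the ligands Slit1 and Slit3. Of the 44 tested, 10 did not exceed the filter's limit of 0.647 CPM in every library, Plxnc1 and Robo3 among them. For this limit CPM were taken on the unscaled library total. Levels are compared between genes as CPM per kb of annotated exon, averaged over the 16 libraries. Sema7a, a semaphorin held in the membrane by a lipid anchor, was at 318 ± 39.3 CPM per kb (SD, n = 16). Robo4, the Robo receptor of endothelium, was at 274 ± 15.7 CPM per kb, and Plxnd1, the receptor for Sema3e, at 197 ± 18.7 CPM per kb. These 3 genes carried 57.1% of the summed per-length level of all 65, with a range of 54.9% to 58.7% over libraries, and each stood above at least 98.8% of the genes tested.

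**Figure D1:**
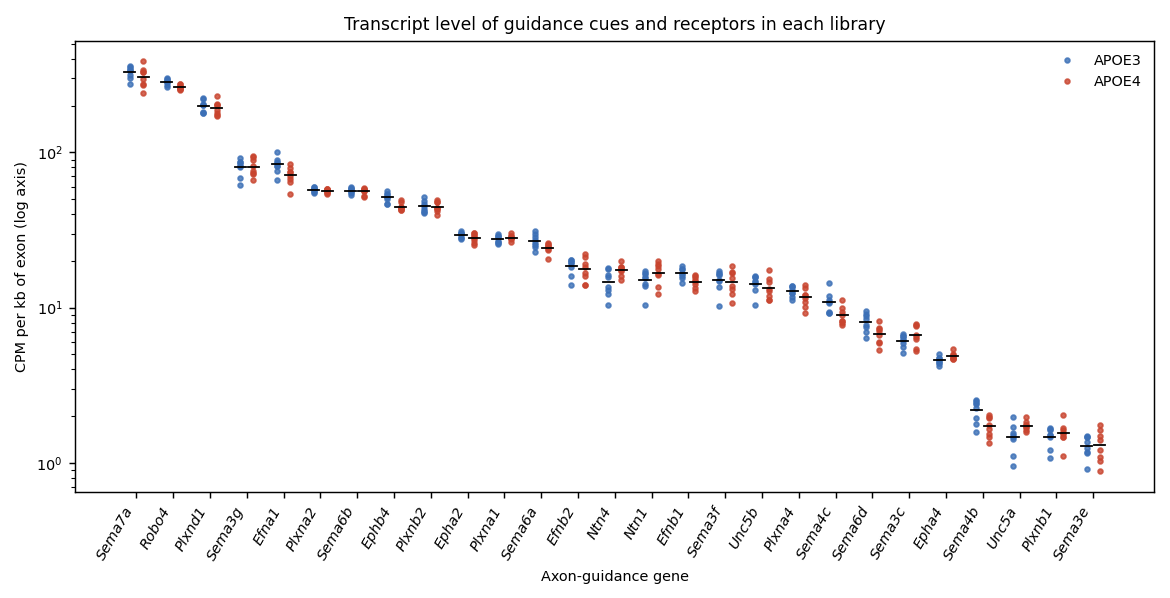
CPM per kb of exon on a log axis for the 27 guidance genes averaging at least 1 CPM per kb, with each point a library, blue for APOE3 and red for APOE4, and a bar at the mean of 8. Sema7a, Robo4 and Plxnd1 lie apart at the top, and for every gene the ranges of the genotypes overlap.

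The order at the top was clear for some neighbours and not for others. Sema7a exceeded Robo4 in 14 of 16 libraries, Robo4 exceeded Plxnd1 in 16, and Plxnd1 exceeded Sema3g in 16. Sema3g, a class 3 semaphorin of arterial endothelium, averaged 80.5 ± 9.85 CPM per kb and Efna1, a ligand of EphA receptors, 77.4 ± 11.4 CPM per kb, with Sema3g above in only 10 of 16. Plxna2 and Sema6b followed at 57.2 ± 1.84 and 56.5 ± 2.50 CPM per kb and likewise changed places, Plxna2 being above in 11. Ephb4 at 48.0 ± 4.49 and Plxnb2 at 44.8 ± 3.49 CPM per kb did not separate beyond their spread either, whereas Plxnb2 exceeded Epha2, at 28.8 ± 1.62 CPM per kb, in all 16.

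Within each receptor and ligand system a few genes made up most of the transcripts. Robo4 was 2935 times Robo1 per length in the median library and 2731 times Slit2, the tested Slit, which averaged 2.54 ± 0.75 CPM in APOE3 and 2.38 ± 0.68 CPM in APOE4. Among ephrin receptors Ephb4, the venous receptor for ephrin-B2, was 2.69 times its ligand Efnb2 per length, with a range of 2.00 to 3.67 over libraries, and 198 times Ephb6. Efna1 was 2.77 times its receptor Epha2. Both netrins tested were present at like levels, Ntn4, a laminin-like netrin of basement membranes, at 0.984 times Ntn1 in the median library, and the netrin receptor Unc5b was at 0.901 times Ntn4 and 8.63 times Unc5a. Of the other netrin receptors, Dcc had no count and Neo1, neogenin, was at 18.9 ± 2.44 CPM in APOE3 and 17.3 ± 4.49 CPM in APOE4 (SD, n = 8 each). Plxnd1 was 150 times its ligand Sema3e, while Sema7a was 4640 times its receptor Plxnc1 in the median library. Plxnc1 had only 1 to 17 counts per library, while Itgb1, the other receptor chain known to bind Sema7a, was at 1183 ± 83.5 CPM in APOE3. The neuropilins, co-receptors of most class 3 semaphorins, were both detected, Nrp2 at 594 ± 50.2 and Nrp1 at 111 ± 5.54 CPM in APOE3.

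Guidance genes varied to different degrees among cultures of the same genotype. Over the 26 guidance genes with at least 100 counts in every library, the SD of log2 CPM within genotype ran from 0.05 for Plxna2 and 0.06 for Robo4 to 0.30 for Sema3e. Plxna1, Sema6b, Epha2, Epha4 and Ephb4 were also under 0.09, while Efnb2, Unc5b, Ntn4, Ntn1 and Sema3f were each over 0.21. Level differed along this range too, Plxna2 having at least 11927 counts per library and Sema3e 124 to 262. Epha2 and Efnb2, of like level at 138 and 126 CPM in APOE3, stood at 0.08 and 0.23.

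APOE4 was compared with APOE3 to ask which guidance genes differ with the human APOE allele. Ephb4, Robo4, Efnb1 and the semaphorins Sema4b, Sema4c, Sema5a and Sema6d were lower in APOE4, by 0.12 to 0.63 on the log2 scale, and no guidance gene was higher. These 7 are 15.9% of the 44 tested (edgeR quasi-likelihood test, Benjamini-Hochberg adjusted over 12481 genes), beside 12.8% of all genes tested, of which 6.09% were lower and 6.71% higher. The share of guidance genes that differed was therefore near that of all genes, while their direction was lower in 7 of 7. Of the 44, 28 (63.6%) had a negative log2 fold change, beside 50.1% of all genes, with a median of -0.04 beside -0.0002. An unadjusted p under 0.05 was seen for 15 (34.1%), beside 29.0% of all genes. No guidance gene separated the genotypes without overlap in CPM, which 0.625% of all genes did.

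**Figure D2:**
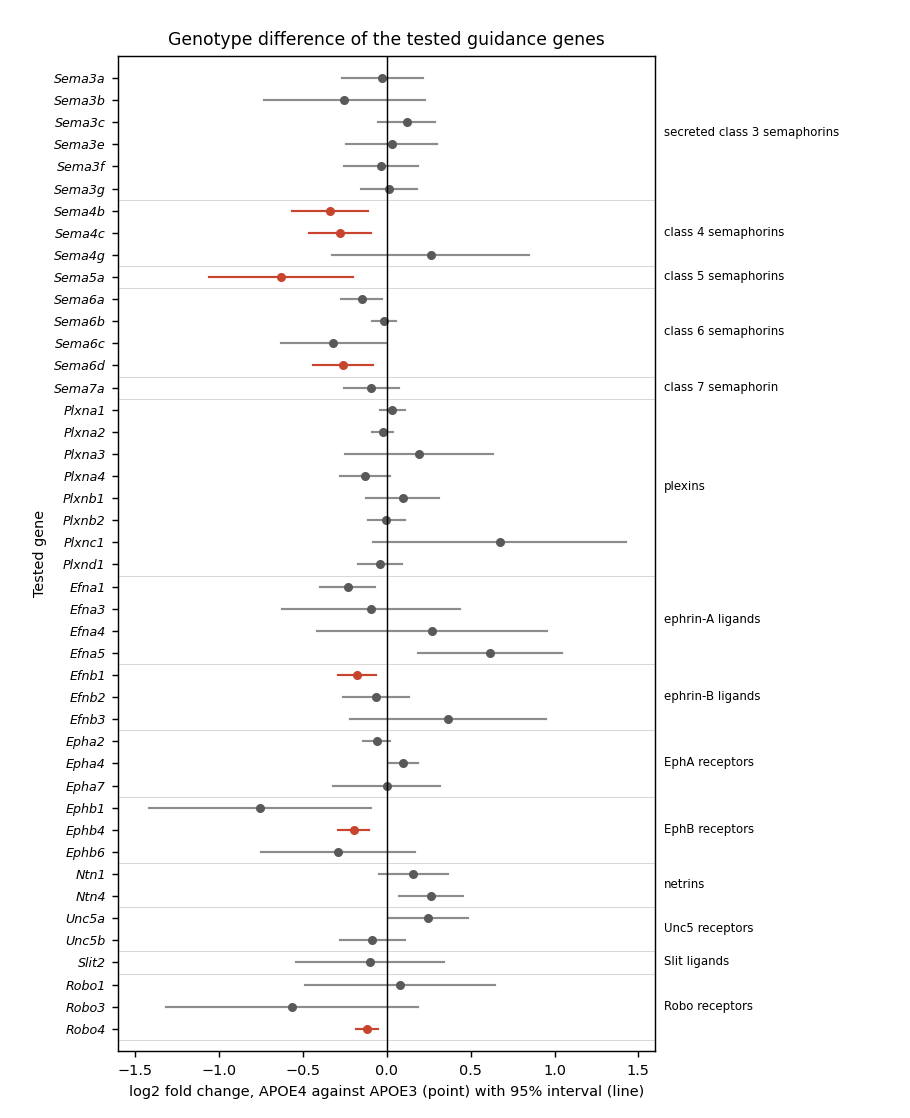
Log2 fold change of APOE4 against APOE3 for the 44 tested guidance genes by family, with points at the estimate and lines for the 95% interval, red where the adjusted p is under 0.05. The 7 red genes all lie left of 0, with Ephb4 and Robo4 among the narrowest intervals.

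Ephb4 (chr5:137350109-137378669, plus strand), whose signalling with ephrin-B2 keeps veins distinct from arteries, ranged from 216 to 261 CPM with a median of 239 in APOE3 and from 196 to 229 CPM with a median of 205 in APOE4. All 8 APOE4 cultures were below the APOE3 median and 6 were below the lowest APOE3 culture. Mean levels of 238 and 208 CPM gave a log2 fold change of -0.20 ± 0.04 (SE; edgeR adjusted p = 0.00886). It was called in 16 of 16 fits that each left out 1 culture, between -0.22 and -0.18, but it lost the call once the cell cycle score entered the model (adjusted p = 0.719).

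Robo4 (chr9:37401897-37415115, plus strand), which restrains VEGF signalling in endothelium and binds Unc5b, ranged from 1404 to 1596 CPM with a median of 1519 in APOE3 and from 1342 to 1459 CPM with a median of 1386 in APOE4, with means of 1515 ± 67.7 and 1395 ± 45.7 CPM (SD, n = 8 each). All 8 APOE4 cultures lay below the APOE3 median and 5 below the lowest APOE3 culture. The log2 fold change of -0.12 ± 0.03 (SE; adjusted p = 0.0214) was set against a within-genotype SD of 0.06 in log2 CPM, and it was called in 16 of 16 leave-one-out fits, between -0.14 and -0.11. It was not called with the cell cycle, mural or fibroblast score as a covariate (adjusted p = 0.598, 0.076 and 0.0525) or with GC content and length corrected (adjusted p = 0.104). Robo1 and Robo3 had too few counts to show such a difference: Robo1 stood at 0.08 ± 0.27 and Robo3 at -0.57 ± 0.36 (log2 fold change ± SE), with at most 44 and 18 counts in a library. Robo2 had at most 2 counts.

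**Figure D3:**
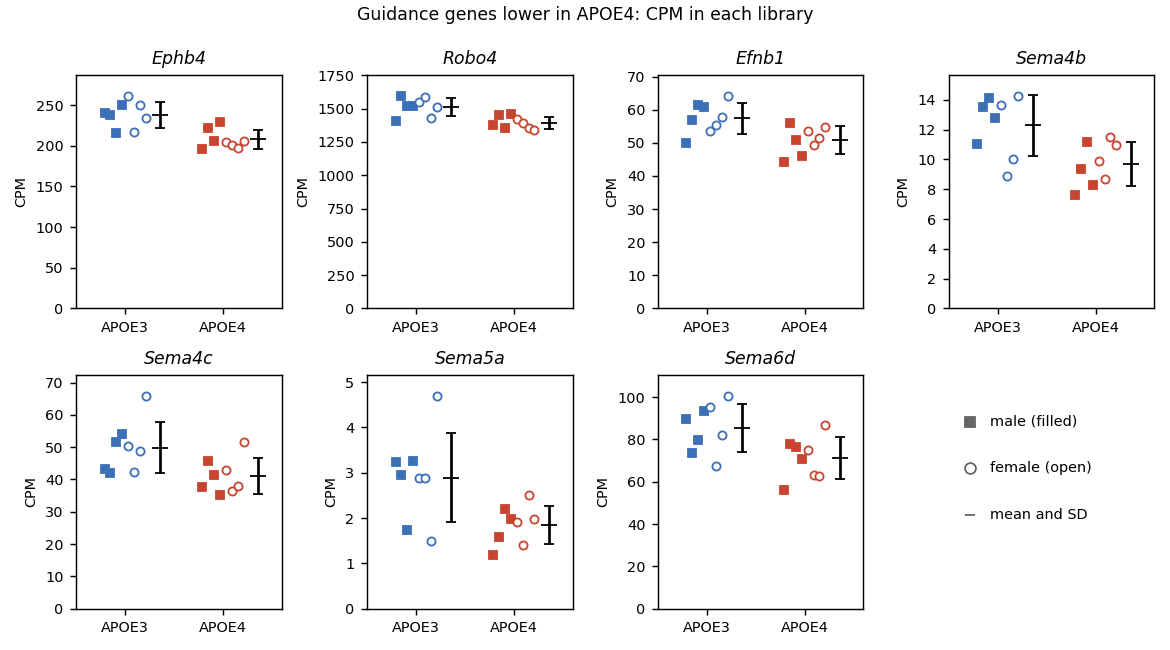
CPM in each of the 16 libraries for the 7 guidance genes that were lower in APOE4, filled squares for males and open circles for females, with mean and SD of 8 beside each group and axes that start at 0. The groups overlap in every panel, least for Ephb4, where 6 of 8 APOE4 libraries lie under all APOE3 libraries.

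Efnb1 (chrX:99136130-99148991, plus strand), a membrane ligand of EphB receptors, ranged from 49.8 to 64.2 CPM with a median of 57.3 in APOE3 and from 44.2 to 56.1 CPM with a median of 51.1 in APOE4. All 8 APOE4 cultures were below the APOE3 median and 3 below the APOE3 minimum, with a log2 fold change of -0.18 ± 0.06 (SE; edgeR adjusted p = 0.0409). Efnb2, the arterial ephrin-B and the better known partner of Ephb4, was at 126 ± 15.8 CPM in APOE3 and 121 ± 21.1 CPM in APOE4 (SD, n = 8 each). Its log2 fold change was -0.06, with a 95% interval of -0.26 to 0.14 (adjusted p = 0.71), so a difference of the size seen in Ephb4 lies within that interval. Efnb1 lost its call in 11 of 16 leave-one-out fits.

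Among semaphorins, the 4 lower genes were all transmembrane cues. Sema4c (chr1:36548639-36558349, minus strand), a ligand of plexin B2, ranged from 42.1 to 65.8 CPM in APOE3 and from 35.3 to 51.6 CPM in APOE4, with medians of 49.6 and 39.6. Its log2 fold change was -0.28 ± 0.09 (SE; edgeR adjusted p = 0.0455), 5 of 8 APOE4 cultures lying below every APOE3 culture. An antisense gene shares 7.27% of its exon bases, and the sources do not state whether counting used strand. Sema4b (chr7:80186841-80226527, plus strand), of the same class, fell from a median of 13.2 CPM (8.87 to 14.3) to 9.63 CPM (7.62 to 11.5), all 8 APOE4 cultures being below the APOE3 median, with a log2 fold change of -0.34 ± 0.11 (adjusted p = 0.0443).

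Sema6d (chr2:124089969-124667770, plus strand), a ligand of plexin A1, had a median of 85.9 CPM (67.7 to 101) in APOE3 and 73.0 CPM (56.2 to 86.7) in APOE4. The groups overlapped broadly, with 7 of 8 APOE4 cultures below the APOE3 median and 3 below the APOE3 minimum, which gave -0.26 ± 0.09 on the log2 scale (SE; edgeR adjusted p = 0.0495). Sema5a (chr15:32244810-32696341, plus strand), whose extracellular part carries thrombospondin repeats, had the largest log2 fold change of the 7, -0.63 ± 0.21 (adjusted p = 0.0477), on the fewest reads, 15 to 70 counts per library. Its median was 2.92 CPM in APOE3, where 1 culture reached 4.69 CPM, and 1.95 CPM in APOE4, with a range of 1.19 to 2.50 CPM there. These 4 calls lay close to the threshold: Sema4b was called in 6 of 16 leave-one-out fits, Sema4c in 5, Sema6d in 4 and Sema5a in 2, the last only without APOE3 replicate 3 or 7.

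The remaining semaphorins did not pass the test. Class 6 members all had negative estimates: Sema6a was at -0.15 ± 0.06 (log2 fold change ± SE; edgeR adjusted p = 0.0984) with 8 of 8 APOE4 cultures below the APOE3 median, Sema6c at -0.32 ± 0.15 (adjusted p = 0.161), and Sema6b at -0.02 ± 0.04, with a 95% interval of -0.09 to 0.06. Sema7a, the guidance gene with the highest level per kb of exon, was at 1084 ± 98.6 CPM in APOE3 and 1017 ± 154 CPM in APOE4 (SD, n = 8 each; log2 fold change -0.09 ± 0.08 SE). Of the secreted class 3 genes, 0 of 6 tested passed, beside 12.8% of all genes. Sema3g was at 364 ± 45.7 and 367 ± 46.8 CPM (log2 fold change 0.01, 95% interval -0.16 to 0.18) and Sema3e at 11.9 ± 1.87 and 12.1 ± 2.84 CPM (0.03, -0.24 to 0.30).

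The receptors of these semaphorins did not pass the test either, with 0 of 8 plexins called, beside 12.8% of all genes. In a family of this size a count of 0 lies near that share. Plxnd1 was at 1457 ± 132 CPM in APOE3 and 1417 ± 147 CPM in APOE4 (SD, n = 8 each; log2 fold change -0.04, 95% interval -0.17 to 0.09). Plxna2, at 991 ± 34.2 and 973 ± 28.4 CPM, had the narrowest interval, -0.09 to 0.04. Plxnb2, the Sema4c receptor, was at -0.0029 with an interval of -0.11 to 0.11. Plxnc1 had the largest estimate among plexins, 0.67 ± 0.36 (SE; edgeR adjusted p = 0.226), on 1 to 17 counts per library, and it entered the test chiefly through APOE4, where 6 libraries passed the filter's CPM limit against 2 in APOE3.

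Ephrin-A ligands and EphA receptors held 0 calls among 7 tested, beside 12.8% of all genes. Yet 2 ligands lay just outside the threshold in opposite directions. Efna5 was at 1.12 to 2.80 CPM with a median of 2.20 in APOE3 and at 1.98 to 4.85 CPM with a median of 3.17 in APOE4 (log2 fold change 0.62 ± 0.21 SE; edgeR adjusted p = 0.0531). Efna1, which is induced by inflammatory cytokines in endothelium, was at 122 to 184 CPM with a median of 153 in APOE3 and at 98.6 to 154 CPM with a median of 132 in APOE4 (-0.23 ± 0.08; adjusted p = 0.0575), 7 of 8 APOE4 cultures being below the APOE3 median. Epha2, the main EphA receptor here, was at 138 ± 5.21 and 132 ± 8.79 CPM (SD, n = 8 each; -0.06, 95% interval -0.14 to 0.02). Ephb1 had the largest negative estimate of all, -0.75 ± 0.32 (adjusted p = 0.119), on 3 to 39 counts. Efnb3 and Efna4 had the other large positive estimates, 0.37 ± 0.28 and 0.27 ± 0.33, each with at most 29 counts in a library.

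Both netrins tested had positive estimates. Ntn4 was at 38.7 to 67.2 CPM with a median of 54.7 in APOE3 and at 56.2 to 74.2 CPM with a median of 66.0 in APOE4. Every APOE4 culture was above the APOE3 median and 3 were above the APOE3 maximum, with a log2 fold change of 0.27 ± 0.09 (SE; edgeR adjusted p = 0.0605), just outside the threshold. Ntn1 was at 0.16 ± 0.10, and the receptor Unc5b at 89.4 ± 11.6 and 84.2 ± 13.8 CPM (SD, n = 8 each), a log2 fold change of -0.09 with a 95% interval of -0.28 to 0.11. By DESeq2's Wald test 10 guidance genes (22.7%) were called, beside 15.7% of all genes: the same 7 together with Efna1, which was lower, and Efna5 and Ntn4, which were higher. Just inside the threshold were Sema6d and Sema5a (adjusted p = 0.0495 and 0.0477), and just outside Efna5 and Efna1.

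**Figure D4:**
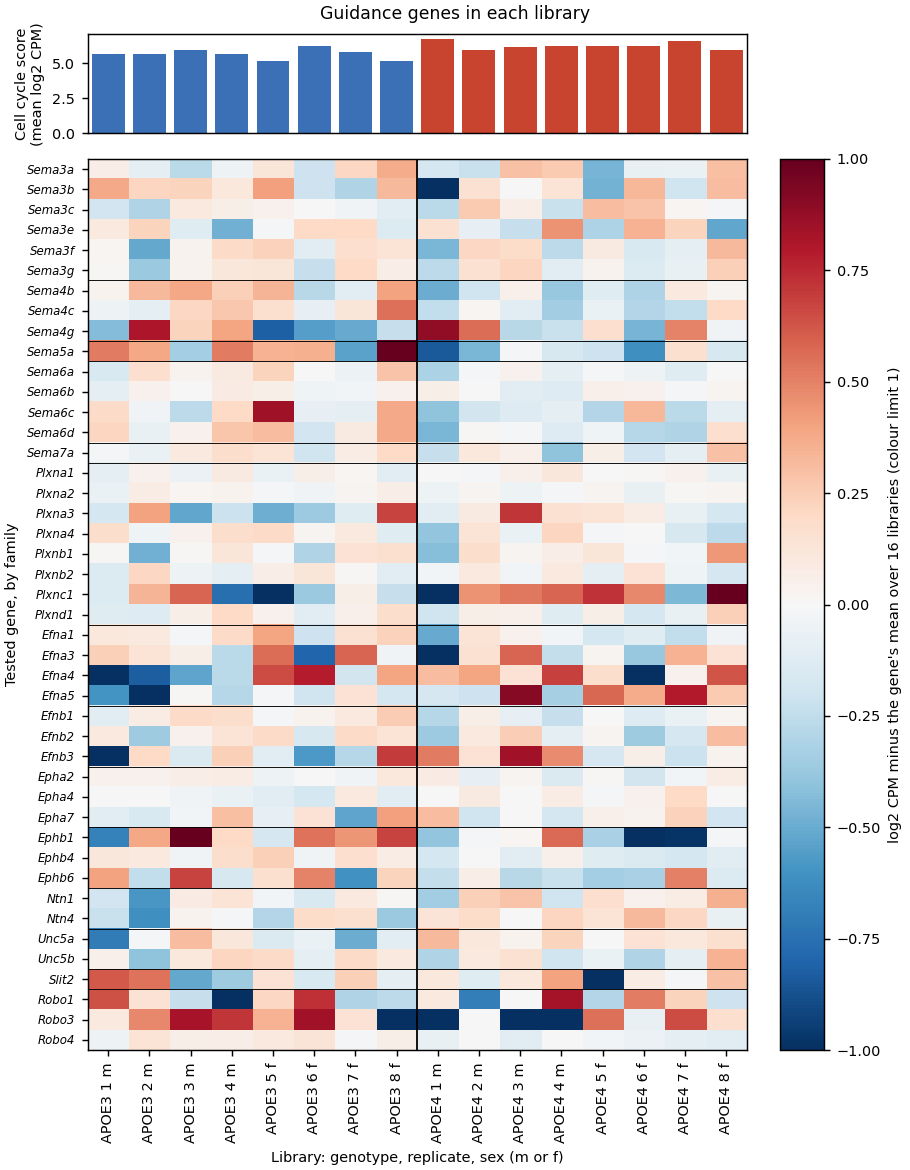
Lower panel, log2 CPM of each tested guidance gene minus its mean over the 16 libraries, from blue (lower) to red (higher) with colours limited at 1, by library and family; upper panel, the cell cycle score (mean log2 CPM) of each library on an axis from 0. APOE4 replicate 1 has the highest score and is blue for many genes, and APOE3 replicate 8 has the lowest score and is red for many. APOE4 replicate 8, with a score of 5.95, is the highest of its genotype for 13 of the 44 genes.

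Single cultures recurred at the ends of the range. APOE4 replicate 1, the shallowest library, was the lowest of its genotype for 21 of 44 tested guidance genes and for 5 of the 7 that were lower in APOE4. It also had the highest cell cycle score, 6.75. APOE3 replicate 8 was the highest of its genotype for 13 of 44 and for 5 of the 7, and had the lowest cell cycle score, 5.17. Other cultures lay at the ends too. APOE4 replicate 8, with a score of 5.95, was the highest of its genotype for 13 of 44. APOE3 replicates 1 and 2, at 5.69 and 5.65, were the lowest of theirs for 10 and 11. APOE3 replicate 6, with the highest APOE3 score, 6.23, was the lowest for 6. A link between these counts and the score was not tested. Without APOE4 replicate 1, 3 guidance genes were called (Ephb4, Robo4 and, as higher, Efna5), and without APOE3 replicate 8, 2 were (Ephb4 and Robo4). Without APOE3 replicate 4 or 5 or APOE4 replicate 6 the calls were likewise Ephb4 and Robo4 alone. Ephb4 and Robo4 were called with Sema4c and Sema6d without APOE3 replicate 2, with Sema5a and Efna1 (lower) without APOE3 replicate 3, and with Sema4b without APOE4 replicate 3 or 7. They were called with Efna5 (higher) without APOE4 replicate 4 and with Efnb1 without APOE4 replicate 5.

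The cell cycle score was higher in APOE4, so the fit was repeated with it as a covariate. No guidance gene was then called (0 of 44, with 4 at an unadjusted p under 0.05), nor was any of the 12481 genes (0, with 909 at an unadjusted p under 0.05). The estimates moved by different amounts. Robo4 was nearly unmoved, at -0.12 ± 0.04 (log2 fold change ± SE; unadjusted p = 0.0121, adjusted p = 0.598), and Efna5 stayed at 0.57 ± 0.30. Ephb4 came to -0.10 ± 0.05 (adjusted p = 0.719), Efnb1 to -0.09 ± 0.07, Sema4b to -0.11 ± 0.14 and Sema5a to -0.28 ± 0.28. Sema4c came to -0.03 ± 0.10, Ntn4 to 0.04 ± 0.10, and Sema6d and Efna1 turned positive, at 0.06 ± 0.07 and 0.08 ± 0.06. The score differs between the genotypes, so what belongs to each cannot be told apart in 16 libraries.

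**Figure D5:**
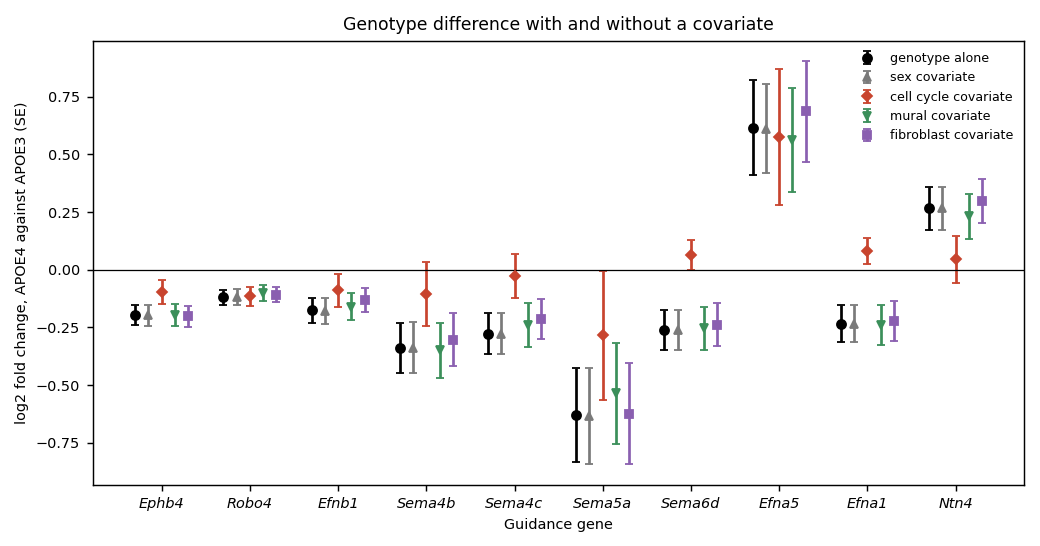
Log2 fold change (± SE) of APOE4 against APOE3 for the 7 called guidance genes and 3 just outside the threshold, fitted with genotype alone or with 1 covariate. Robo4 and Efna5 keep their size with the cell cycle score, while Sema4c, Sema6d, Efna1 and Ntn4 move to near 0 or past it.

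Markers of other cells were set beside the same genes. The mean log2 CPM of mural markers was 2.97 ± 0.29 in APOE3 and 3.16 ± 0.24 in APOE4 (SD, n = 8 each, exact permutation p = 0.167). That of fibroblast markers was 2.92 ± 0.53 and 3.29 ± 0.63 (exact permutation p = 0.225). Summed CPM of mural markers went the other way, 565 ± 73.3 and 514 ± 52.9 (exact permutation p = 0.132), with Mcam at 299 ± 44.7 and 230 ± 65.6 CPM. Fibroblast markers summed to 124 ± 27.6 and 148 ± 32.0 CPM (exact permutation p = 0.127). In the fibroblast list Fbln1 was called, as higher in APOE4 (0.90 ± 0.16, log2 fold change ± SE; edgeR adjusted p = 0.00542), and in the mural list none of 10 tested. Neuron markers scored 1.57 ± 0.22 and 1.81 ± 0.15 in mean log2 CPM (exact permutation p = 0.0205) and summed to 12.6 to 20.7 CPM per library. This score holds only the 3 tested of 12, Stmn2, Tubb3 and Rbfox3, and 0 were called. Tubb3 made up most of the sum, at 9.29 ± 0.95 and 10.7 ± 1.75 CPM, and 7 of the 12 never reached 1 CPM. Oligodendrocyte markers summed to 30.2 ± 2.72 and 34.7 ± 2.32 CPM (exact permutation p = 0.000777), mostly Cnp at 28.1 ± 2.49 and 32.9 ± 2.22 CPM. Cnp was called as higher in APOE4 (0.23 ± 0.06, log2 fold change ± SE, edgeR adjusted p = 0.0143). It was called in 16 of 16 leave-one-out fits. The oligodendrocyte score, from the 2 tested genes, was lower in APOE4, 2.56 ± 0.28 and 2.43 ± 0.21 (exact permutation p = 0.298). Astrocyte and microglia scores gave p = 0.283 and 0.39 (exact permutation tests). The part of neuron, oligodendrocyte, astrocyte and microglia markers in the guidance differences was not tested. With either score as a covariate, Ephb4 was the only guidance gene called, at -0.20 in both fits (edgeR adjusted p = 0.0288 with mural and 0.0176 with fibroblast markers). Robo4 was at -0.10 and -0.11. With a correction for GC content and gene length, Ephb4 was at -0.14 (adjusted p = 0.021) and Sema5a at -0.63 (adjusted p = 0.0489) and both were called, while Robo4 was at -0.08.

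Within males 0 guidance genes were called by edgeR (8 with an unadjusted p under 0.05), and within females 0 (7), beside 0% of all genes in each sex. Fits of each sex alone also gave 0 and 0. In females, leaving out APOE3 replicate 6 gave 2 calls and leaving out APOE4 replicate 1 gave 1. The 7 genes lower in the pooled comparison had negative estimates in both sexes. Ephb4 was at -0.15 ± 0.06 in males and -0.25 ± 0.06 in females (log2 fold change ± SE), and Robo4 at -0.10 ± 0.05 and -0.14 ± 0.05. Sema4b was at -0.49 ± 0.15 in males and -0.19 ± 0.15 in females, and the difference between the sexes, 0.30 ± 0.22, was not called. No guidance gene had a genotype effect that differed between sexes by edgeR (0 of 44, 2 with an unadjusted p under 0.05; 0 by DESeq2), beside 0% of all genes, and those 2, Efna4 and Robo3, had at most 19 counts in a library; both were chosen for mention after their values were seen. Between female and male cultures 0 guidance genes differed (1 with an unadjusted p under 0.05; 0 by DESeq2), beside 0.0721% of all genes.

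Co-receptors and other cues outside the families were read from a list of 25, of which 18 were tested. In APOE4 3 of these 18 rose and 1 fell, beside 6.71% and 6.09% of all genes, around a median log2 fold change of 0.04. Itgb1, the integrin beta-1 chain, rose from 1183 ± 83.5 to 1325 ± 44.9 CPM (SD, n = 8 each; log2 fold change 0.16 ± 0.04 SE; edgeR adjusted p = 0.0143), its groups not overlapping. Itga1, its collagen-binding partner, rose by 0.14 ± 0.03 (adjusted p = 0.00718), and Lgals1, a galectin that binds neuropilin-1, by 0.30 ± 0.09 (adjusted p = 0.0367). Adgrl3, a latrophilin bound by Flrt proteins and Unc5 receptors, fell by 0.17 ± 0.05 (adjusted p = 0.032). Lgals1 was called in only 8 of 16 leave-one-out fits and Adgrl3 in 10, while Itgb1 and Itga1 were called in 16. The neuropilins and VEGF receptors did not pass: Nrp1 was at 0.01 ± 0.03, Nrp2 at 0.11 ± 0.07, Kdr at -0.04 ± 0.03 and Flt1 at -0.02 ± 0.04 (log2 fold change ± SE).

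Signalling genes downstream of the receptors were read from a list of 55, of which 51 were tested. In APOE4 2 of these 51 rose and 2 fell, beside 6.71% and 6.09% of all genes, around a median log2 fold change of -0.0058. Rock2, a kinase that drives actomyosin contraction, rose from 268 ± 18.4 to 308 ± 12.7 CPM (SD, n = 8 each; log2 change 0.20 ± 0.04 SE; edgeR adjusted p = 0.00727) with no overlap, and Rnd1, a small GTP-binding protein that binds plexins, rose by 0.33 ± 0.09 (adjusted p = 0.0209). Arhgef12, an exchange factor recruited by B-class plexins, fell by 0.13 ± 0.03 (adjusted p = 0.0169), and Ablim1, an actin-binding LIM protein, fell by 0.14 ± 0.04 (adjusted p = 0.0407). Ablim1 was called in only 7 of 16 leave-one-out fits, while Rock2, Rnd1 and Arhgef12 were called in 16. The switches themselves did not pass: Rhoa was at 0.03 ± 0.03, Rac1 at 0.03 ± 0.03 and Cdc42 at 0.10 ± 0.03 (log2 fold change ± SE; adjusted p = 0.0502 for Cdc42).

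Vessel-type markers are given beside Ephb4 and Efnb2, which are themselves venous and arterial genes. Of 10 venous markers, 5 were higher in APOE4 and 0 lower (median log2 fold change 0.22). The 5 included Selp and Vcam1, leukocyte adhesion molecules, and Il1r1, an interleukin-1 receptor, while Ackr1 (-0.30 ± 0.13, SE), Nr2f2 (-0.11 ± 0.06), Vwf (0.02 ± 0.07), Slc38a5 (0.06 ± 0.10) and Icam1 (0.12 ± 0.09) did not pass. Of 12 arterial markers tested, 2 were higher and 0 lower (median 0.06), and of 24 endothelial markers 1 was higher and 1 lower (median -0.05). In mean log2 CPM, endothelial markers were at 9.26 ± 0.03 in APOE3 and 9.21 ± 0.04 in APOE4 (SD, exact permutation p = 0.0443). Their sums were 26928 ± 698 and 26834 ± 903 CPM (exact permutation p = 0.82). Venous scores were 6.55 ± 0.18 and 6.80 ± 0.13 (p = 0.00591), and arterial scores 5.08 ± 0.12 and 5.20 ± 0.17 (p = 0.129, exact permutation tests). The part of vessel type or of endothelial marker level in the guidance differences was not tested.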

How the data were processed

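Libraries were made from 100 ng of RNA by poly-A selection, random and oligo-dT priming and 17 PCR cycles, and read at 50 nt. The submitters' processing notes name STAR, featureCounts and the builds mm10 and hg38; versions, annotation release and strand setting are not given in the sources used here. The authors deposited raw counts per gene. Of 39056 mouse identifiers 38872 matched GENCODE vM21 (GRCm38), which gave symbols, positions and exon lengths; Ntn3 was not analysed here. Genes were kept by filterByExpr (minimum count 10), scaled by TMM and tested with edgeR 4.0.16 in R 4.3.3 (quasi-likelihood, adjusted p under 0.05). Log2 CPM values used a prior count of 2. Standard errors are those of the log2 fold change. Sex-specific and interaction contrasts came from a model of the 4 genotype and sex groups. DESeq2 1.42.0, limma 3.58.1 (voom), covariates, other filters and leave-one-out fits were alternatives; scripts were tested on simulated data. Replicates are separate animals, numbered in accession order, and library pairs had Spearman correlations of 0.979 to 0.996. The guidance genes and all gene lists were chosen with earlier results of these data known. Named genes were those called, the 10 highest per length, 10 vessel genes (Efnb2, Ephb4, Plxnd1, Robo4, Unc5b, Sema3g, Sema3e, Ntn4, Epha2, Efna1), the 5 largest changes each way, and of other guidance lists those called; further genes give context.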

Additional observations from a re-analysis of the deposited data

Results flagged for a closer look

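Sema6c, a class 6 semaphorin, was at 5.12 CPM in APOE4 replicate 6, with the next highest APOE4 culture at 3.77 CPM. The gap was 0.641 of the group's range, so this culture lay far from the other 7. Over the 44 tested guidance genes, 4 of 88 gene and genotype groups had such a culture, and chance gives about 1 in 20.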

How the results depend on the processing

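The 7 lower and 0 higher guidance genes became 7 lower and 0 higher with DESeq2 size factors, 6 lower and 1 higher with limma voom, 5 lower and 0 higher without the filter, 7 lower and 1 higher with at least 10 counts in every library and 4 lower and 1 higher with sex as a covariate. Their number was 0 with the cell cycle score, 1 with the mural score, 1 with the fibroblast score and 2 with the GC content and length correction, and 2 to 8 when 1 culture was left out. The 1597 calls over all genes became 0 with the cell cycle score and 692 with the mural score, and 846 to 2127 with 1 culture left out. Within females the count of 0 was 0 to 2 with 1 culture left out, 2 without APOE3 replicate 6 and 1 without APOE4 replicate 1. With the cell cycle score the log2 fold change changed sign for Sema6d (0.064), Efna1 (0.081), Plxna2 (0.0080), Plxnd1 (0.11), Sema6b (0.0090), Sema7a (0.12), Efnb2 (0.18), Unc5b (0.10), Sema3e (-0.20) and Sema6c (0.11). With GC content and length it did for Plxna2 (0.0073), Plxnb2 (0.052), Plxnd1 (0.035) and Sema6b (0.066), with voom for Plxnb2 (0.0062), with the mural score for Plxnb2 (0.0054) and Sema3g (-0.011), and with the fibroblast score for Sema6b (0.0069) and Sema3e (-0.036). With 1 culture left out, Plxnb2 ran from -0.025 to 0.028, Sema3g from -0.034 to 0.048, Sema6b from -0.031 to 0.00049 and Sema3e from -0.043 to 0.093. Of these genes only Sema6d had passed the test; the cause was not tested. No paired analysis was possible because the labels pair no cultures. Depth limits the genes of few reads: a count of 3 is 0.163 to 0.238 CPM.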
